A study of Rattus norvegicus with 57 samples.

Results

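The genes described here encode nuclear subunits of the mitochondrial respiratory chain and of ATP synthase in rat liver. They are the genes with a single symbol in the array's annotation that start with Ndufa, Ndufb, Ndufc, Ndufs, Ndufv, Uqcr or Atp5, without the Ndufaf assembly factors, together with Sdha to Sdhd and Cox4i1, Cox5a, Cox5b, Cox6b1, Cox6c, Cox7b and Cox7c. The rule used names and no measured value, and it found 70 genes of 14217 with a single symbol. Of these, 36 belong by name to complex I, 4 to complex II, 7 to complex III, 7 to complex IV and 16 to complex V. Ndufa4 is counted with complex I by its name, although it is now placed in complex IV, and Atp5if1 encodes an inhibitor of complex V, not a constant part of it. After a filter on dim probe sets 69 members were tested, and Ndufa4l2 was not, since its signal stayed at or under 14.06 on all arrays.

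The study measured RNA of whole liver from male Han Wistar rats of 8 to 10 weeks that were dosed orally each day with methapyrilene, an antihistamine known for its liver toxicity in rats, at 30 or 80 mg/kg body weight. Controls received the vehicle, carboxymethylcellulose, in which the drug was also given. Livers were taken on days 4, 8 and 15 and on day 24, which followed 14 days of dosing and 10 days of recovery. The 57 arrays form 12 groups of dose and day, with 5 arrays each. There are 4 in the day-24 groups of control and 30 mg/kg and in the day-4 group of 80 mg/kg. The labels state 6 rats per group, and only these arrays were analysed. Each array was taken as 1 rat, and the p-values rest on the spread between these arrays. The values are MAS5 signals, a brightness per probe set, which can be compared between arrays but not between genes.

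The respiratory chain passes electrons from NADH through complex I, or from succinate through complex II, by way of ubiquinone to complex III, and from there by way of cytochrome c to complex IV, where oxygen is reduced. Complexes I, III and IV pump protons across the inner mitochondrial membrane, and complex V, the ATP synthase, uses the gradient to make ATP. Hepatocytes, the main cells of liver, are rich in mitochondria, and most subunits are encoded in the nucleus, as are all members here.

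Promoter sequences are shown for 4 members whose signals moved in different directions after 80 mg/kg, so that the letters around their start sites can be set beside the values. They are taken from RefSeq (assembly GRCr8) and run from 250 bases before to 50 bases after a start site, 5′ to 3′ on the strand of the gene; for Atp5me that site lies inside the gene, past its first listed base. Ndufv3 lies at chr20:9613536-9613835 on the plus strand, Atp5if1 at chr5:150026628-150026927 on the minus strand, Atp5me at chr14:1464610-1464909 on the plus strand and Uqcrc1 at chr8:118467973-118468272 on the plus strand. Capitals mark matches, on either strand, to the motifs searched, which were NRF1 (GCGCNTGCG), ETS (CCGGAAG), YY1 (AAGATGGCG), Sp1 (GGGCGG) and ERR (TCAAGGTCA). NRF1, the ETS factor GABP and YY1 are known regulators of nuclear genes for the chain.
Ndufv3: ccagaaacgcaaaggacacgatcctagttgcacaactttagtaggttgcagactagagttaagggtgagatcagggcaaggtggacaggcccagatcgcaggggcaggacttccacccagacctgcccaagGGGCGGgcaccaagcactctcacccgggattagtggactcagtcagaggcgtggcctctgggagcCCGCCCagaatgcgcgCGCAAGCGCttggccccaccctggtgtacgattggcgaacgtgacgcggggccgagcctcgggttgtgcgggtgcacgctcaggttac
Atp5if1: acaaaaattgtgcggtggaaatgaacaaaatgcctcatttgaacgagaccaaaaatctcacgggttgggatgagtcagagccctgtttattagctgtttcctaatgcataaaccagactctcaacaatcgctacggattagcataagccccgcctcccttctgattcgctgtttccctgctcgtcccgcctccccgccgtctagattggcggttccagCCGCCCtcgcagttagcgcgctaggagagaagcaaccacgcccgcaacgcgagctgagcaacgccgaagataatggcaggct
Atp5me: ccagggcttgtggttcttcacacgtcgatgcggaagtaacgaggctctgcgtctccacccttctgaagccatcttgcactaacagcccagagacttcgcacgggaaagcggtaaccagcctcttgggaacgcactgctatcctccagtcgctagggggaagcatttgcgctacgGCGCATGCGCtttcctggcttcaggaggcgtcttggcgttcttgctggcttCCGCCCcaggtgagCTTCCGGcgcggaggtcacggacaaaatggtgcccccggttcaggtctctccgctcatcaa
Uqcrc1: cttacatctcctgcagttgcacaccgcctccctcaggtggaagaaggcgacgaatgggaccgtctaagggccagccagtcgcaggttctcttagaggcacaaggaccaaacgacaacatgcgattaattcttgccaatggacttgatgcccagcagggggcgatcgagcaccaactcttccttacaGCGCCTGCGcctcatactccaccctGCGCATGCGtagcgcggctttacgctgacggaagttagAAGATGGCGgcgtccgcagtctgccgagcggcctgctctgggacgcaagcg

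The Ndufv3 window held 1 NRF1 match and 2 Sp1 matches, and that of Atp5if1 held 1 Sp1 match alone. The Atp5me window held 2 NRF1 matches, which overlap on opposite strands, with 1 ETS and 1 Sp1 match, and that of Uqcrc1 held 2 NRF1 matches and 1 YY1 match at the start site. Of the 65 members with a promoter in the table, 18 held an NRF1 match (27.7%, against 6.34% of all 27457 promoters), 19 an ETS match (29.2% against 9.22%) and 10 a YY1 match (15.4% against 1.93%). An ERR match stood in 2 members (3.08% against 0.412%) and an Sp1 match in 28 (43.1% against 34.9%). Atp5pd, Cox6c, Ndufa8, Ndufb9 and Uqcr11 had no promoter among the sequences used and were not searched. The change at 80 mg/kg on day 15 had a median of -0.23 (log2) over the 18 tested members with an NRF1 match and -0.14 over the 46 without one. For ETS the medians were -0.16 with and -0.15 without a match, for YY1 -0.07 and -0.17, and for Sp1 -0.13 and -0.17. For ERR they were -0.31 over only 2 members with a match and -0.15 over 62 without. Members with a match were thus lower for some motifs and higher for others, on the deposited scale. A match is a string of letters and was not tested as a binding site.

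On the deposited scale, most subunit genes were lower in rats given 80 mg/kg by day 8, and a smaller set still was on day 15. On day 4 at 80 mg/kg, 4 of 69 members rose and 5 fell against the same day's control (limma with Benjamini-Hochberg adjustment over all 10725 genes, adjusted p under 0.05), where 18.3% of all genes rose and 9.19% fell. On day 8, 3 rose and 49 fell, against 34.2% and 16.6% of all genes. On day 15, 8 rose and 36 fell, against 38.8% and 20.5%. On day 24, after recovery, none rose and 12 fell, against 7.15% and 3.08%. The day-24 count ran from 3 without 80 mg/kg replicate 2, and 4 without control replicate 3, to 24 without 80 mg/kg replicate 5; it was 6 without control replicate 4 or 5 or without 80 mg/kg replicate 1 or 3. At day 4 the total of 9 was 7 without control replicate 5 or without 80 mg/kg replicate 2 or 5. The median change of the members was 0.03 (log2) on day 4, -0.23 on day 8, -0.13 on day 15 and -0.13 on day 24, and the median over all genes was 0.08, 0.15, 0.16 and 0.04.

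The direction of the small changes depended on how the arrays were scaled. Counts at 80 mg/kg against control were therefore made on 3 scales, while some other results below stand on the deposited scale alone. Arrays of the 80 mg/kg groups were brighter in the middle of their signal range, with array medians of 16.83 to 21.12 against 14.99 to 17.79 in controls. Once the arrays were shifted to share 1 median, 6 members fell and 1 rose on day 4 (14.9% and 8.79% of all genes), 61 fell and 2 rose on day 8 (27.9% and 16.5%), 43 fell and 3 rose on day 15 (26% and 28.9%), and 66 fell and none rose on day 24 (31.3% and 2.49%). That shift moved the median of all genes to -0.05, -0.07, 0.03 and -0.21. After quantile normalization, 16 rose and 3 fell on day 4 (15.7% and 10.6%), 13 rose and 16 fell on day 8 (25.2% and 20.3%), 31 rose and 14 fell on day 15 (31% and 25%), and none rose and 5 fell on day 24 (4.3% and 2.91%). The median of the members on day 15 was then 0.12, on the other side of 0 from -0.13 on the deposited scale.

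**Figure D1:**
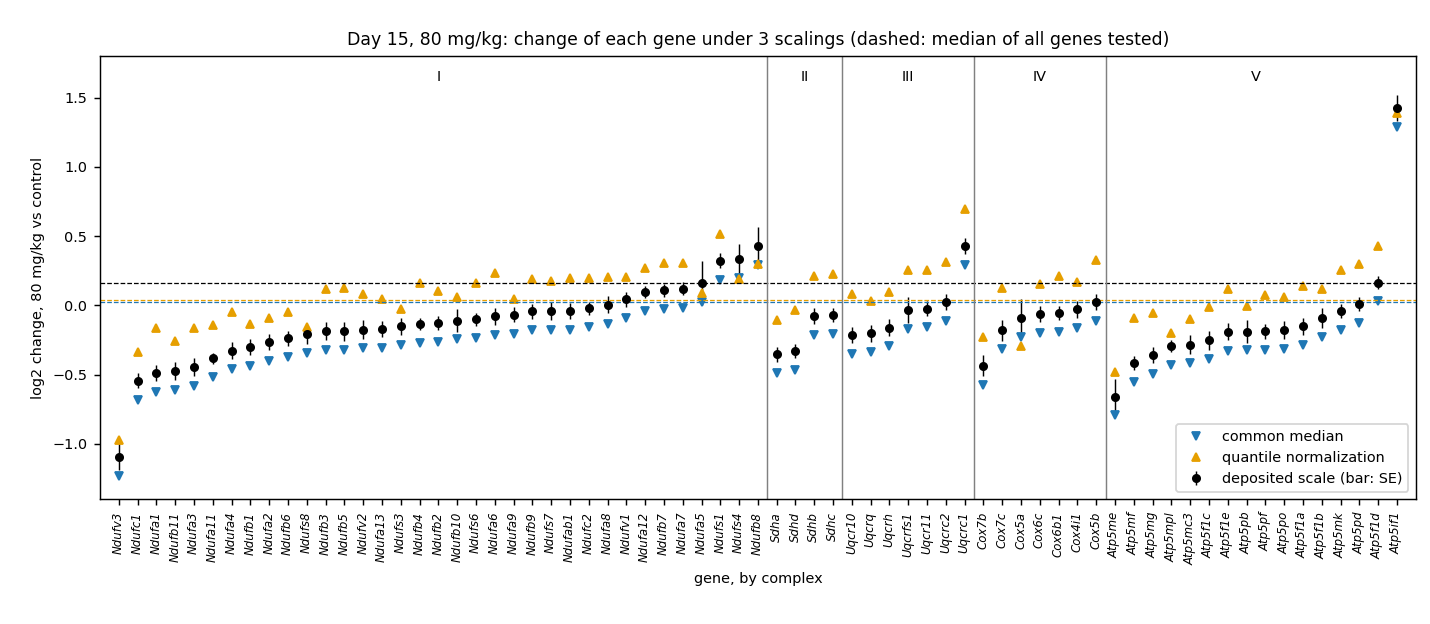
Change at 80 mg/kg against control on day 15 (log2) for each tested gene, ordered by complex, with a black circle and SE bar for the deposited scale, a blue triangle for a common median and an orange triangle for quantile normalization; dashed lines are the medians of all genes. Many genes lie on opposite sides of 0 on the deposited and the quantile scale, while Atp5if1, at 1.43 on the deposited scale, and Ndufv3, at -1.09, stay at the ends.

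Subunit genes are bright on these arrays, and bright genes as a whole were lower at 80 mg/kg on the deposited scale. Among the 863 genes with a mean signal of at least 1000, 55 of them members, 59.2% fell on day 8 and 63.2% on day 15. Their median change was -0.29 on day 8 and -0.36 on day 15, against -0.25 and -0.17 for the members among them. Among the 1659 genes with a mean signal of at least 500, 64 of them members, the medians were -0.17 on day 8 and -0.21 on day 15, against -0.23 and -0.16 for the members. The order of the medians on day 8 thus turned with the level chosen, and on day 15 that of the members was nearer 0 at both. Values below are on the deposited scale, and only some of its calls were also made, in the same direction, on the other scales. Called on all 3 scales were 1 rise and 3 falls on day 4 (8.77% and 8.5% of all genes), 2 rises and 15 falls on day 8 (16.4% and 14.5%), 3 rises and 14 falls on day 15 (27.2% and 18.9%), and 5 falls on day 24 (2.03%; 1.93% of all genes rose). The 14 falls of day 15 are near the share of all genes that fell, and the share of members that rose was below that of all genes on each day. On day 4 these calls were Atp5if1 upward and Ndufa1, Ndufv3 and Sdha downward. On day 8 they were Atp5if1 and Ndufs4 upward, and Atp5me, Atp5mf, Cox7b, Ndufa1, Ndufa2, Ndufa3, Ndufa4, Ndufa11, Ndufb1, Ndufb6, Ndufb11, Ndufc1, Ndufs8, Ndufv3 and Sdha downward. On day 15 they were Atp5if1, Ndufs1 and Uqcrc1 upward, and Atp5mc3, Atp5me, Atp5mf, Atp5mpl, Cox7b, Ndufa1, Ndufa3, Ndufa11, Ndufb1, Ndufb11, Ndufc1, Ndufs8, Ndufv3 and Sdha downward. Every other rise or fall given below for 80 mg/kg against control on those days was not called, or had the other sign, on at least 1 other scale.

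**Figure D2:**
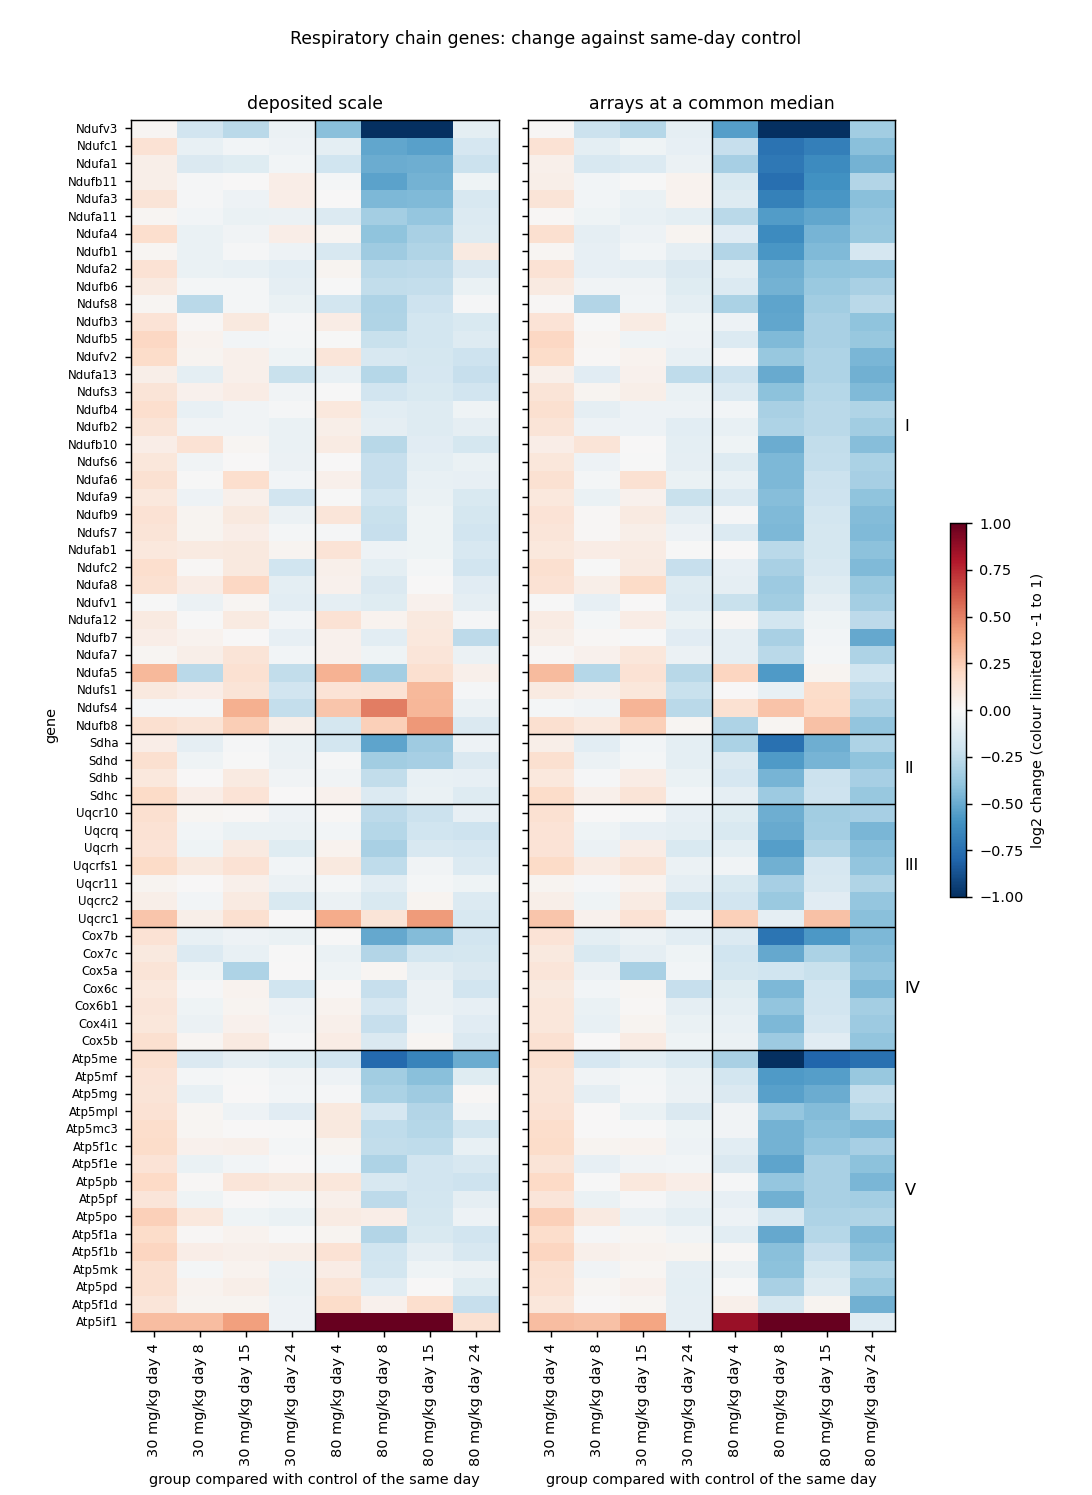
Change (log2) of each tested gene (rows, by complex) against the control of the same day for each dose and day (columns), on the deposited scale at left and with arrays at a common median at right; blue is lower, red is higher, and the colour stops at -1 and 1. The rows of Atp5if1 and Ndufv3 are the darkest at 80 mg/kg on days 8 and 15, and the columns of 30 mg/kg are pale.

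Complex I takes electrons from NADH at a flavin site in its matrix arm and passes them along iron-sulfur clusters to ubiquinone, while its membrane arm pumps protons. Of its 35 tested members, 23 fell and 2 rose on day 8 at 80 mg/kg (median -0.23), and 18 fell and 5 rose on day 15 (median -0.13). By role, 12 of 18 accessory subunits of the membrane arm fell on day 15 and 2 rose, against 2 falls and 2 rises among 9 accessory subunits of the matrix arm and 3 falls and 1 rise among 6 core subunits of that arm. No test set these groups against each other. On day 15, 20.5% of all genes fell and 38.8% rose, and 63.2% of genes with a mean signal of at least 1000 fell. Of the membrane arm group, Ndufa1, Ndufa3, Ndufa11, Ndufb1, Ndufb11 and Ndufc1 alone fell on all 3 scales that day. On day 8, 16.6% of all genes fell and 34.2% rose, and 59.2% of those bright genes fell. The same shares stand beside the counts of the other complexes below.

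Ndufv3, a small accessory subunit beside the flavin site, had the largest fall of any member on days 4, 8 and 15. On day 15 its signal was 1416.39, 1560.65, 1669.65, 1625.24 and 1679.57 in controls and 735.48, 687.16, 743.65, 715.75 and 848.03 at 80 mg/kg. Every treated array lay far below every control array, at 0.469 times the control level. The change was -1.09 ± 0.10 (log2, SE, n = 5 and 5; limma adjusted p = 4.89e-14), and it was -1.11 ± 0.10 on day 8 (adjusted p = 1.41e-13) and -0.42 ± 0.10 on day 4 (n = 4 and 5; adjusted p = 0.00151). Within each array, the ratio of Ndufv3 to Ndufv1, the flavoprotein that binds NADH, was -1.14 (log2) from the control mean on day 15, with the 5 arrays from -1.30 to -0.89, which a shift of a whole array cannot alter.

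A dimmer probe set of Ndufv3 went the other way. Its mean signal was 60.1, and it rose by 0.64 on day 4 (adjusted p = 0.00208), 0.53 on day 8 (adjusted p = 0.00338) and 0.54 on day 15 (adjusted p = 0.00213), in a limma fit of all kept probe sets. The fall belongs to the brighter probe set alone, and the annotation used here does not say which transcripts each one reads. With the mean of both probe sets in place of the brighter one, the change on day 4 was 0.11 (adjusted p = 0.388).

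The core subunits of complex I, which carry the flavin and the iron-sulfur clusters, did not move as 1 group on day 15. Ndufs1, the large subunit with several clusters, had signals of 895.02, 826.69, 964.97, 907.32 and 834.99 in controls and 1071.84, 1095.61, 1121.45, 1163.0 and 1081.08 at 80 mg/kg. All 5 treated arrays were above all 5 controls, and Ndufs1 rose by 0.32 ± 0.05 (limma adjusted p = 6.39e-07). On day 8 its rise of 0.14 ± 0.05 (adjusted p = 0.0202) was lost without 80 mg/kg replicate 2 or 5 (adjusted p up to 0.051) and was -0.08 with a common median. Ndufs8, which binds iron-sulfur clusters near the ubiquinone site, fell by 0.21 on day 15 (adjusted p = 0.00735) and by 0.31 on day 8 (adjusted p = 0.000166). Its fall by 0.19 on day 4 (adjusted p = 0.046) was lost without any 1 of 8 of the 9 arrays, with an adjusted p of up to 0.132.

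Of the other core subunits, Ndufs3 fell by 0.15 on day 15 (adjusted p = 0.033) and Ndufv2 by 0.17 (adjusted p = 0.0303). The call for Ndufs3 was lost without control replicate 1 or 3 or 80 mg/kg replicate 2 or 5 (adjusted p up to 0.108). That for Ndufv2 was lost without control replicate 3, 4 or 5 or 80 mg/kg replicate 1 or 2 (adjusted p up to 0.0849). Ndufs7 changed by -0.04 and Ndufv1 by 0.04 on day 15, neither of them called.

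Accessory subunits of the membrane arm are the largest class among the tested genes of complex I. They also make up most of the genes of complex I that were lower on all 3 scales. Ndufc1 had signals of 1544.72, 1573.12, 1678.89, 1617.05 and 1678.75 in controls on day 15 and 1133.0, 976.2, 1172.27, 1047.12 and 1238.28 at 80 mg/kg. No treated array reached the lowest control, and the change was -0.54 ± 0.05 (limma adjusted p = 9.01e-13), after -0.52 ± 0.05 on day 8 (adjusted p = 1.28e-11). Ndufb11 at 80 mg/kg on day 8 ran from 1067.28 to 1339.19 (median 1204.24), below control signals of 1645.85 to 1928.92 (median 1722.36), and it fell by 0.53 (adjusted p = 4.75e-09). Ndufa1, a small subunit of the membrane arm, fell by 0.20 on day 4 (adjusted p = 0.01), by 0.49 on day 8 (adjusted p = 5.25e-10) and by 0.49 on day 15 (adjusted p = 2.2e-10). Ndufa3, Ndufa11 and Ndufb1 were also lower on both days on all 3 scales, and Ndufb6 on day 8. Ndufa2, of the matrix arm, and Ndufa4, now placed in complex IV, were lower on all 3 scales on day 8 too.

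A few accessory subunits of complex I were higher. Ndufs4, an accessory subunit of the matrix arm, had control signals of 209.42, 245.47, 242.33, 258.98 and 196.77 on day 8 and signals of 320.55, 373.18, 358.38, 327.15 and 264.69 at 80 mg/kg. The groups did not overlap, and Ndufs4 rose by 0.51 ± 0.11 (adjusted p = 0.000127), a call made on all 3 scales. Its rise on day 15 was 0.33 ± 0.11 (adjusted p = 0.00851), against controls of 136.42 to 187.02, which stood below the controls of the other days (196.77 to 258.98). Ndufb8, of the membrane arm, had control signals of 155.6 to 185.89 on day 15 against 159.51, 212.9, 221.65, 326.12 and 252.14, with overlap in 1 array. Its rise of 0.43 ± 0.14 (adjusted p = 0.00569) became 0.30 (adjusted p = 0.0529) without 80 mg/kg replicate 4.

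**Figure D3:**
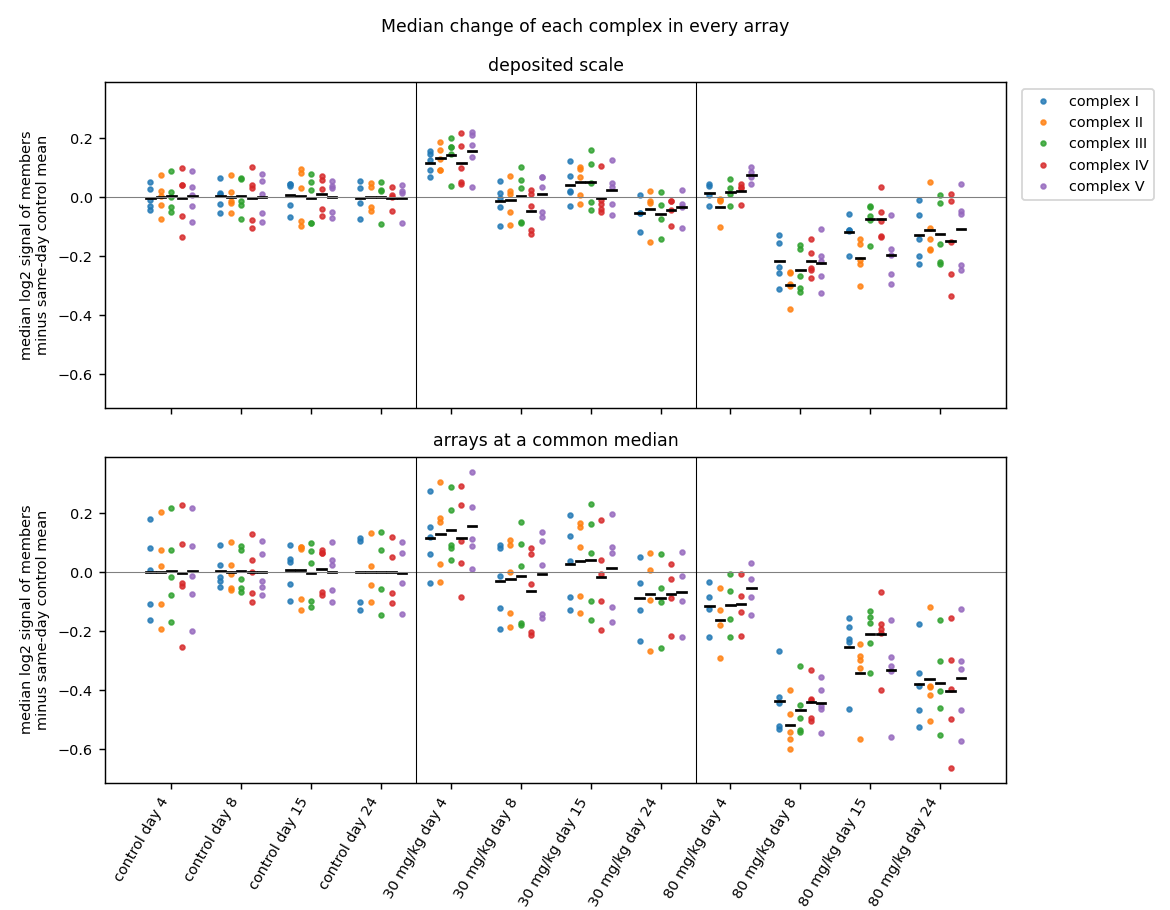
Median over the tested genes of each complex of the log2 signal minus the mean of the same-day controls, with 1 point per array, colours for the 5 complexes and a black bar at the group mean, on the deposited scale above and with arrays at a common median below. On the deposited scale the 80 mg/kg arrays of day 8 lie between -0.38 and -0.11 in all 5 complexes, and the spread between arrays of a group is wider at a common median.

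Complex II oxidises succinate and so links the citric acid cycle to the chain. All 4 members fell on day 8 at 80 mg/kg (median -0.29), and Sdha and Sdhd fell on day 15. Sdha, the flavin-bearing catalytic subunit, had control signals of 1837.02, 1870.88, 2024.69, 2046.5 and 1976.46 on day 8 and signals of 1387.75, 1323.64, 1301.22, 1269.88 and 1507.67 at 80 mg/kg. Every treated array was below every control, and the change was -0.52 ± 0.06 (limma adjusted p = 6.9e-11), with -0.35 ± 0.06 on day 15 (adjusted p = 3.91e-07). On day 4 it fell by 0.19 ± 0.06 (adjusted p = 0.0161), a call lost without replicate 5 of control or replicates 3 or 5 of 80 mg/kg (adjusted p up to 0.0676).

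Sdhd, a membrane anchor, fell by 0.33 on day 15 (adjusted p = 1.24e-07), and its second probe set, with a mean signal of 960, fell by the same 0.33 (adjusted p = 0.000268). Sdhb, the iron-sulfur subunit, and Sdhc, the other anchor, fell by 0.24 and 0.14 on day 8 (adjusted p = 0.000489 and 0.0144), the latter not without replicate 4 of control or of 80 mg/kg (adjusted p up to 0.0534). On day 15 they changed by -0.08 and -0.07, not called. After quantile normalization both were higher on day 15, at 0.21 and 0.23, so only Sdha kept its fall on all 3 scales.

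Complex III hands electrons from ubiquinol to cytochrome c. On day 8 at 80 mg/kg 5 of its 7 members fell (median -0.26), and on day 15 3 fell and 1 rose (median -0.03). The gene that rose was Uqcrc1, which encodes core protein 1. Its control signals on day 15 were 1557.98, 1390.3, 1475.4, 1619.4 and 1591.57, and those at 80 mg/kg were 1996.56, 1989.24, 2138.94, 2000.93 and 2125.43. No treated array came down to the highest control, with a change of 0.43 ± 0.06 (limma adjusted p = 1.62e-08), and on day 4 it rose by 0.37 ± 0.06 (adjusted p = 9.76e-06).

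Uqcrc2, core protein 2, changed by 0.03 on day 15 and fell by 0.15 on day 8 (adjusted p = 0.0213), a call lost without replicate 3 of control or replicate 4 of 80 mg/kg (adjusted p up to 0.109). Within arrays the ratio of Uqcrc1 to Uqcrc2 stood 0.40 (log2) above the control mean on day 15, with the 5 arrays from 0.27 to 0.51. A dimmer probe set of Uqcrc2, with a mean signal of 96, rose by 1.09 on day 15 (adjusted p = 7.59e-05) and by 0.64 on day 8 (adjusted p = 0.0217). Uqcrfs1, the Rieske iron-sulfur protein, fell by 0.26 on day 8 (adjusted p = 0.0157), not without control replicate 4 or 5 (adjusted p up to 0.0573), and changed by -0.03 on day 15. The small subunits Uqcrq, Uqcrh and Uqcr10 fell on both days, by 0.20, 0.16 and 0.22 on day 15 on the deposited scale.

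Complex IV passes the electrons to oxygen, and its catalytic subunits are encoded in mitochondrial DNA and are not among the members. Of its 7 nuclear members, 6 fell on day 8 (median -0.23) and 2 on day 15 (median -0.06), and none rose on either day. Cox7b, a small subunit, had control signals of 3750.5, 3800.0, 4381.61, 4411.94 and 4252.98 on day 8 and signals of 2810.41, 2921.84, 2783.2, 2793.73 and 3127.68 at 80 mg/kg. The groups did not overlap, with a change of -0.51 ± 0.07 (limma adjusted p = 1.2e-07), and on day 15 of -0.44 ± 0.07 (adjusted p = 1.56e-06). The regulatory subunit Cox4i1 fell by 0.23 on day 8 (adjusted p = 0.00259) and Cox5b by 0.14 (adjusted p = 0.0367), but after quantile normalization these values were 0.01 and 0.12. The Cox5b call was lost without control replicate 3, 4 or 5 or 80 mg/kg replicate 2, 3 or 4 (adjusted p up to 0.102). On day 15 Cox4i1, Cox5a and Cox5b changed by -0.03, -0.09 and 0.02, not called.

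Complex V makes ATP in its F1 head as protons turn the c ring in the membrane. Of its 16 members, 11 fell and 1 rose on day 8 at 80 mg/kg (median -0.22), and 11 fell and 2 rose on day 15 (median -0.19). On day 15, 4 of the 5 small membrane subunits fell (median -0.36), as did 3 of 4 peripheral stalk subunits and 3 of 5 F1 subunits. The large exception was Atp5if1, the inhibitor protein that blocks hydrolysis of ATP by the enzyme when the gradient fails.

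Atp5if1 had the largest rise of any member on days 4, 8 and 15. On day 15 its signals were 216.21, 199.87, 215.48, 214.42 and 221.88 in controls, 296.11, 280.45, 274.73, 266.75 and 298.08 at 30 mg/kg, and 562.01, 571.79, 513.94, 632.3 and 594.69 at 80 mg/kg. The 3 groups did not overlap, and the order followed the dose. The rise at 80 mg/kg was 1.43 ± 0.09 (limma adjusted p = 2.91e-18), or 2.69 times control, and at 30 mg/kg 0.41 ± 0.09 (adjusted p = 0.00595). On day 8 it rose by 1.28 ± 0.09 (adjusted p = 9.05e-16), and on day 4 by 0.995 ± 0.10 (adjusted p = 1.84e-10), with signals of 327.86 to 539.22 against 201.06 to 243.33 in controls. The rise is that of the brightest of 3 probe sets. The others, with mean signals of 26.4 and 11.2, changed by -0.51 (adjusted p = 0.0781) and 0.22 (adjusted p = 0.575) on day 15, and with the mean of its probe sets the difference of 80 from 30 mg/kg on that day was -0.09 in place of 1.02. Within arrays, the ratio of the brightest one to Atp5f1b, the catalytic beta subunit, stood 1.52 (log2) above the control mean on day 15, with the 5 arrays from 1.29 to 1.71.

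Atp5me, a small membrane subunit, was among the members with the largest falls. Its control signals on day 8 were 1282.73, 998.29, 1533.15, 1409.79 and 1233.48, and those at 80 mg/kg were 747.06, 802.51, 727.4, 615.89 and 862.74. All treated arrays were below all controls, with a change of -0.78 ± 0.13 (limma adjusted p = 1.52e-06), and on day 15 it fell by 0.66 ± 0.13 (adjusted p = 1.7e-05). Atp5mf, also a small membrane subunit, was lower on all 3 scales on days 8 and 15, and Atp5mpl and Atp5mc3, which forms the c ring, on day 15. Atp5mc3 at 80 mg/kg on day 15 had signals of 3222.87, 3377.75, 3713.11, 3557.17 and 4200.35 against 3914.95 to 4634.16 in controls, with overlap in 1 treated array, and fell by 0.28 (adjusted p = 0.000567).

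The F1 subunits form the catalytic head. On day 8 the alpha, beta and gamma subunit genes Atp5f1a, Atp5f1b and Atp5f1c fell by 0.29, 0.20 and 0.25 (adjusted p = 4.71e-05, 0.0258 and 0.00167), where Atp5f1b was lost without control replicate 3 or 4 or 80 mg/kg replicate 3 or 4 (adjusted p up to 0.0941) and was 0.07 after quantile normalization. On day 15 the alpha and gamma genes fell by 0.15 and 0.25 (adjusted p = 0.0247 and 0.00106), and Atp5f1b changed by -0.09. The call for Atp5f1a on day 15 was lost without control replicate 3 or 5 or 80 mg/kg replicate 1 or 2 (adjusted p up to 0.0814), and after quantile normalization it was 0.14. Atp5f1d, the delta subunit, rose by 0.18 on day 4 (adjusted p = 0.00602) and by 0.16 on day 15 (adjusted p = 0.00334).

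**Figure D4:**
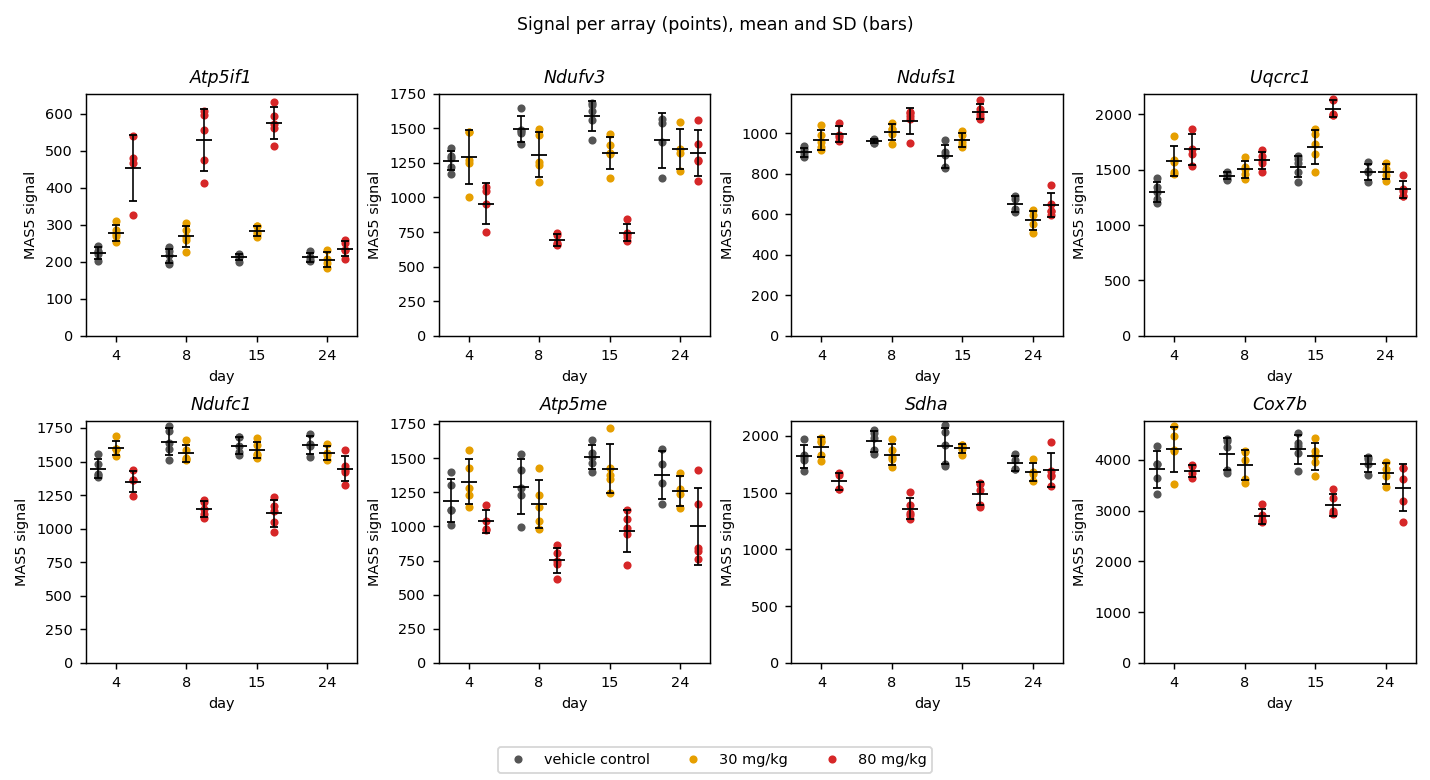
Deposited MAS5 signal of 8 genes on linear axes from 0, by day, for control (grey), 30 mg/kg (orange) and 80 mg/kg (red), with 1 point per array and black bars for the mean and SD of each group. Atp5if1 lies at 199.87 to 221.88 in controls on day 15 and at 513.94 to 632.3 at 80 mg/kg, while Ndufv3, Ndufc1 and Atp5me lie below their controls on that day.

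Of the 49 members that fell on day 8 and the 36 that fell on day 15, 32 were the same (65.3% and 88.9%), and these 2 comparisons have no array in common. Over all genes, 1517 of 1782 falls on day 8 and of 2194 on day 15 were shared (85.1% and 69.1%). Between day 4 and day 15 the effect of 80 mg/kg differed in 24 members on the deposited scale (24.4% of all genes), counted in either direction. Of the 24, 2 were higher and 22 lower, while after quantile normalization 13 were higher and 8 lower. The calls made on all 3 scales were Atp5if1 upward (9.59% of all genes), and Atp5mc3, Atp5mpl, Cox7b, Ndufa3, Ndufb11, Ndufc1 and Ndufv3 downward (7.35%). For Ndufv3 the difference was -0.68 ± 0.14 (adjusted p = 0.000271). For Ndufb8 it was 0.61 (adjusted p = 0.0189), lost without day-4 80 mg/kg replicate 2 or day-15 80 mg/kg replicate 4 (adjusted p up to 0.0775).

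After the 10 days of recovery Atp5if1 and Ndufv3 were no longer called, while 9 of the 49 members that fell on day 8 and 7 of the 36 that fell on day 15 fell on day 24 too. On day 24, 3.08% of all genes fell, and their overlap with the falls of the earlier days is not given here. Whether the members kept their falls more often than other genes was thus not tested. On day 24 Atp5if1 had signals of 204.84, 202.31, 229.15 and 213.23 in controls and 250.08, 259.68, 233.03, 206.44 and 231.14 at 80 mg/kg, which overlap, with a difference of 0.15 ± 0.10 (adjusted p = 0.34). Ndufv3 had 1138.63, 1566.85, 1400.58 and 1541.53 in controls and 1118.99, 1260.87, 1270.84, 1384.18 and 1562.26 at 80 mg/kg, also overlapping, and the difference was -0.10 (adjusted p = 0.58). The effect of 80 mg/kg on day 24 differed from that on day 15 in 20 members (42.7% of all genes). On the deposited scale 12 were higher and 8 lower, and after quantile normalization 7 were higher and 34 lower. On all 3 scales, where 11.3% of all genes were higher and 22.3% lower, the effect of day 24 was higher for Ndufv3, at 0.998 ± 0.14 (adjusted p = 7.94e-08), and lower for Atp5if1, at -1.28 ± 0.14 (adjusted p = 1.26e-10), for Uqcrc1, at -0.59 ± 0.09 (adjusted p = 1.73e-07), and for Atp5f1d, Ndufa7, Ndufb7 and Ndufs1. The comparison between days 24 and 15 shares its day-15 arrays with that between days 15 and 4.

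Other members were lower on day 24 than in controls of that day in the fit to all 12 groups, but with only the 2 groups compared in limma's fit none of the 12 was called (17 members were lower at an unadjusted p under 0.05), and without the filter on dim probe sets 7 were. The unadjusted count has no share of all genes beside it, so it does not tell members from other genes. Ndufb7, of the membrane arm of complex I, had control signals of 1070.56, 1207.76, 1042.53 and 1022.75 and signals of 958.16, 812.32, 879.22, 926.59 and 958.73 at 80 mg/kg. The groups did not overlap, and Ndufb7 fell by 0.26 ± 0.05 (limma adjusted p = 0.00063). Atp5f1d fell by 0.23 ± 0.05 (adjusted p = 0.00303), Ndufc2 by 0.19 (adjusted p = 0.0132) and Ndufa1 by 0.22 (adjusted p = 0.0163), each on all 3 scales, with Ndufa1 lost without 80 mg/kg replicate 2 (adjusted p = 0.065). Atp5me had signals of 763.63, 839.64, 1165.51, 819.54 and 1415.6 against 1162.63 to 1565.06 in controls, with overlap in 2 treated arrays. Its fall by 0.49 ± 0.14 (adjusted p = 0.0145) was lost without control replicate 3 or 80 mg/kg replicate 1, 2 or 4 (adjusted p up to 0.0698).

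Ndufa13, of the membrane arm, fell by 0.23 on day 24 (adjusted p = 0.0162), and Uqcrq, Cox6c, Atp5f1a, Ndufb9, Ndufc1 and Ndufa11 fell by 0.13 to 0.21. Of these, Ndufc1 (-0.17) was lost without control replicate 3, 4 or 5 or 80 mg/kg replicate 1, 2, 3 or 4 (adjusted p up to 0.146). Atp5f1a (-0.19) was lost without any 1 control or 80 mg/kg replicate 1, 2 or 3 (adjusted p up to 0.13). Control livers themselves differed between days, with 6 members called between day 24 and day 15 (15.2% of all genes) and 14 between day 15 and day 4 (3.51%). Ndufs1 in controls was 612.91 to 690.81 on day 24, below 826.69 to 964.97 on day 15, a difference of -0.45 ± 0.06 (adjusted p = 3.47e-08), while Ndufs4 was higher on day 24 by 0.50 (adjusted p = 0.00196). The 14 became 5 without control day-15 replicate 4, 6 without day-15 replicate 5, 7 without day-4 replicate 2, and 9 without day-4 replicate 4 or day-15 replicate 3. Of the 14, 13 rose and Ndufs4 fell by 0.46 (adjusted p = 0.0118), but at a common median no member rose and Ndufs4 alone was called. Ndufv3 rose by 0.33 (adjusted p = 0.0424), lost without day-4 replicate 2, 3, 4 or 5 or day-15 replicate 2, 3, 4 or 5 (adjusted p up to 0.0967).

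At 30 mg/kg few members were called. On day 4, 3 rose and none fell (0.531% and 0.252% of all genes), on day 8 none was called (0.177% rose and 0.0559% fell), on day 15, 3 rose and none fell (2.71% and 1.88%), and on day 24 none was called (0.0466% each way). In limma at an unadjusted p under 0.05, 40 members were higher on day 4, and 1 was higher and 3 lower on day 8. On day 15, 10 were higher and 3 lower, and on day 24, 7 were lower. No share of all genes at that unadjusted threshold is given here, so these counts do not tell members from other genes. Atp5if1 on day 15, given above, was the one call made on all 3 scales (1.48% of all genes rose and 1.23% fell on all 3). Uqcrc1 had signals of 1237.84, 1197.39, 1300.25, 1343.74 and 1424.62 in controls on day 4 and 1475.97, 1804.34, 1583.05, 1458.7 and 1572.74 at 30 mg/kg, without overlap. It rose by 0.28 ± 0.06 (adjusted p = 0.0128), a call lost without replicate 2 of control or of 30 mg/kg (adjusted p up to 0.0718). Sdhc rose by 0.19 (adjusted p = 0.0483) and Ndufb4 by 0.17 (adjusted p = 0.0474) on day 4. The median change of all tested members on that day was 0.13 (log2), against 0.01 over all genes and 0.09 over genes of a mean signal of at least 1000, and each complex had a median of 0.11 to 0.16. The day-4 count of 3 was 0 without control replicate 2 or 30 mg/kg replicate 2, and 1 without control replicate 1 or 3 or 30 mg/kg replicate 1, 3, 4 or 5.

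On day 15 Ndufs4 rose by 0.36 at 30 mg/kg (adjusted p = 0.0498), to a mean of 207.1 against 161.4 in that day's low controls and 221.4 to 230.6 in the controls of other days, and Ndufa8, an accessory subunit, by 0.21 (adjusted p = 0.0352). The Ndufs4 call was lost without control replicate 2, 4 or 5 or 30 mg/kg replicate 1, 3, 4 or 5 (adjusted p up to 0.164), and that of Ndufa8 without control replicate 2, 3 or 5 or 30 mg/kg replicate 1, 2 or 3 (adjusted p up to 0.109). The count of 3 was 1 without control replicate 2 or 5 or 30 mg/kg replicate 1 or 3. On day 8 the count was 1, a fall, without control replicate 3 or 30 mg/kg replicate 4.

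The doses were also compared directly, with the same 80 mg/kg arrays as above. Between 80 and 30 mg/kg, 12 members differed on day 4 (20.1% of all genes in either direction), 51 on day 8 (46.1%), 44 on day 15 (55.2%) and 7 on day 24 (6.77%). On the deposited scale 49 were lower at 80 mg/kg on day 8 and 40 on day 15, and at a common median 60 and 51. After quantile normalization most calls turned, with 15 higher and 11 lower on day 8 and 30 higher and 9 lower on day 15. No share of all genes is given for these split counts. On day 15 Atp5if1 was higher at 80 mg/kg by 1.02 ± 0.09 (limma adjusted p = 3.77e-13) and Ndufv3 lower, at -0.82 ± 0.10 (adjusted p = 3.47e-10), with 1139.48 to 1455.77 at 30 mg/kg against 687.16 to 848.03. Atp5if1 was also higher on day 4, by 0.68 (adjusted p = 2.6e-06), and on day 8, by 0.97 (adjusted p = 1.03e-11). Ndufv3 was lower on those days, at -0.43 and -0.91 (adjusted p = 0.00175 and 9.21e-11).

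The day-4 count of 12 became 6 without 80 mg/kg replicate 5. On day 24 the count of 7 was 0 without 80 mg/kg replicate 2, 1 without 30 mg/kg replicate 3, 2 without 30 mg/kg replicate 2 or 80 mg/kg replicate 1, 4 without 80 mg/kg replicate 3, and 13 without 80 mg/kg replicate 5. There Ndufs1 was higher at 80 mg/kg by 0.18 (adjusted p = 0.039), lost without 30 mg/kg replicate 3 or 4 or 80 mg/kg replicate 2 or 5 (adjusted p up to 0.208) and -0.04 with a common median. Atp5pb, of the peripheral stalk, was lower, at -0.30 (adjusted p = 0.0271), lost without 30 mg/kg replicate 3 or 80 mg/kg replicate 1 or 2 (adjusted p up to 0.144).

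Genes that act beside the subunits are given for comparison, from lists drawn up by function, and their counts stand beside 38.8% of all genes that rose and 20.5% that fell in the same comparison. Of 36 listed assembly factors 33 were tested, and on day 15 at 80 mg/kg 19 rose and 3 fell (median 0.27), with 15 and 4 at a common median and 18 and 6 after quantile normalization. Ndufaf4, an assembly factor of complex I, rose by 1.22, with group means of 470 against 205, and Cox16, which takes part in building complex IV, fell by 0.97, with 612 against 1195. Of 19 regulators of mitochondrial genes, all tested, 9 rose and none fell (median 0.22), with 8 and 1 at a common median and 8 and 0 after quantile normalization, and Esrra, the estrogen-related receptor alpha, rose by 1.77 (112 against 33.8). Of 7 tested of 9 carriers and uncouplers 6 rose and none fell (median 0.36), with 4 and 0 at a common median and 6 and 0 after quantile normalization, and Slc25a4, an ADP/ATP carrier, rose by 2.03 (319 against 71.8).

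Of 14 tested of 17 genes of the citric acid cycle 6 rose and 3 fell (median 0.11), with 4 and 4 at a common median and 8 and 2 after quantile normalization. Cs, citrate synthase, rose by 0.69 and Suclg2, a subunit of succinyl-CoA ligase, fell by 0.77. Of 18 tested of 23 other genes of the chain, which the name rule left out, 9 rose and 4 fell (median 0.13), with 7 and 5 at a common median and 9 and 4 after quantile normalization. Cox6a2, a subunit form known from heart and muscle, rose from a group mean of 2.24 in controls, below the filter level of 17.09 and so not a measured level, to 105, for which no exact fold can be given, and Etfdh, which feeds electrons from fatty acid oxidation to ubiquinone, fell by 0.86 (539 against 970). None of 5 striated muscle markers passed the filter on dim probe sets.

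**Figure D5:**
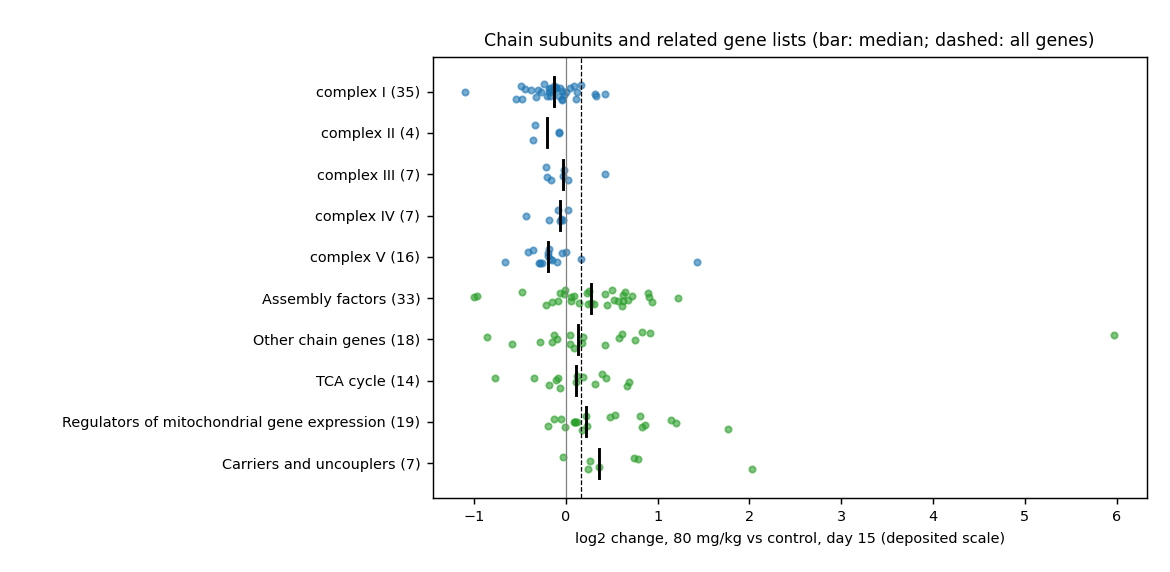
Change at 80 mg/kg against control on day 15 (log2, deposited scale), with 1 point per tested gene, for the 5 complexes (blue) and for 5 lists by function (green); black bars are medians and the dashed line is the median of all genes, 0.16. The medians of the complexes lie from -0.20 to -0.03, and those of the lists from 0.11 to 0.36. After quantile normalization the medians of complexes I, II and V were 0.10, 0.0881 and 0.0709. The lists were not matched to the members in signal level, and its part in this difference was not tested.

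Markers of some liver cell types moved at 80 mg/kg as well, and their part in the results above was not tested. The counts of markers, on the deposited scale unless stated, stand beside 38.8% of all genes that rose and 20.5% that fell on day 15. Of 7 tested hepatocyte markers 5 fell on day 15 at 80 mg/kg and none rose, and their summed signal was 33636 to 49143 against 44041 to 57036 in controls; after quantile normalization 2 fell. Of 9 macrophage markers 6 rose (sums of 3634 to 4857 against 2297 to 2756). Of 5 biliary markers 5 rose (963 to 1433 against 220 to 287). Of 4 markers of dividing cells 4 rose (283 to 533 against 44.3 to 119). Such low control sums mean that some markers of dividing cells lay near or below the filter level in some controls. The filter kept a probe set that was bright enough in any 4 arrays, so a marker could pass through its 80 mg/kg arrays alone. The part of the filter in the count for dividing cells was not tested. The sums overlapped controls for stellate (1238 to 1905 against 1597 to 1927), endothelial (1399 to 1655 against 1496 to 1994) and neutrophil markers (15.1 to 28.4 against 15.8 to 52.3). The T and B cell marker was at 82.2 to 149.8 against 57.8 to 73.3. At 30 mg/kg on day 15 the hepatocyte sums, 47838 to 55418, lay within those of controls. On day 8 at 80 mg/kg the hepatocyte sums, 33282 to 39562, all lay below the 40269 to 51455 of controls. Macrophage sums were then 3603 to 4836 against 2000 to 2803, while stellate and endothelial sums overlapped controls. In whole liver, fewer hepatocytes and less RNA of a gene per hepatocyte cannot be told apart. The ratio of the 3' to the 5' actin probe sets, a sign of RNA quality, was 3.77 to 6.37 on days 4 to 15 and 5.84 to 9.76 on day 24. On day 24 it was 6.04 to 9.76 in controls, 6.54 to 9.30 at 30 mg/kg and 5.84 to 6.76 at 80 mg/kg. In controls of day 15 it was 5.02 to 6.37. The part of this ratio in the differences between days and groups was not tested. The day-24 count of 12 at 80 mg/kg was 8 when control replicate 4 and 30 mg/kg replicate 4, the 2 arrays with the highest such ratio, were left out.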

How the data were processed

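RNA of rat liver was measured on 57 Affymetrix Rat Genome 230 2.0 arrays, 1 per sample. The deposited values are MAS5 signal intensities on a linear scale, per the submitters' processing notes, with no version given in the sources used here. They cover 31099 probe sets, of which 20826 had 1 gene symbol, 436 several and 9831 none. Of the probe sets with several symbols, 6 name genes of these families and were not used. Signals were taken to log2 without an offset, so a change in dim genes is less certain than in bright ones, and the number of arrays limits the precision. Probe sets were kept when 4 or more arrays exceeded 17.09, the median of the whole table (18727, of which 14341 had 1 symbol), and the one of the highest mean stood for each gene, giving 10725 genes.

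limma 3.58.1 in R 4.3.3 fitted 12 group means to all arrays, with eBayes and a variance trend, and the p-values of each comparison were corrected over all genes by Benjamini-Hochberg and called under 0.05. Interactions compared the 80 mg/kg effect between days. The same fit was run with arrays shifted to a common median over all probe sets and after quantile normalization. Comparisons of a day share their control arrays. The members, lists and rules were chosen with earlier results of these data known. The text names core subunits, the 3 largest called rises and falls at 80 mg/kg and in 30 mg/kg on day 15, the largest of each other comparison and of each list, and members called on all 3 scales; the last, and members named for contrast within a complex, were chosen after their values were seen. Replicate numbers of the titles did not pair the samples. Promoters came from RefSeq (GRCr8) and matched 65 of the 70 members. The code was tested on simulated data. Tables and figures used Python 3.11.15 with pandas 2.3.3, numpy 2.4.6 and matplotlib 3.10.9.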

Additional observations from a re-analysis of the deposited data

Results flagged for a closer look

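Among 156 groups of 4 or 5 arrays looked at, 4 held an array that stood apart from the rest, where chance alone marks about 1 group in 20. Ndufs1 at 80 mg/kg on day 8 was 950.82 in replicate 4 and 1068.74 to 1104.18 in the others. The median difference of complex II from control at 80 mg/kg on day 4 was -0.1009 (log2) in replicate 5, against -0.0138 to -0.00433 in the others, and that of complex IV in the same array was -0.02496, against 0.03266 to 0.04443. At 30 mg/kg on day 15 complex IV stood at 0.1081 in replicate 3 and at -0.04822 to -0.007367 in the others.

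The effect of 80 mg/kg differed between days for several of the 8 genes followed array by array, in limma's interaction with Benjamini-Hochberg adjustment. From day 4 to day 15 the effect (log2) moved by 0.431 for Atp5if1 (SE 0.137, adjusted p = 0.0158), -0.6757 for Ndufv3 (SE 0.14, adjusted p = 0.000271), -0.4458 for Ndufc1 (SE 0.0766, adjusted p = 1.96e-05) and -0.4302 for Cox7b (SE 0.108, adjusted p = 0.00241). From day 15 to day 24 it moved by -1.276 for Atp5if1 (SE 0.137, adjusted p = 1.26e-10), -0.5892 for Uqcrc1 (SE 0.0858, adjusted p = 1.73e-07) and -0.3351 for Ndufs1 (SE 0.0767, adjusted p = 0.000339). It moved the other way for Ndufv3, by 0.9976 (SE 0.14, adjusted p = 7.94e-08), Ndufc1, by 0.3772 (SE 0.0766, adjusted p = 6.83e-05), and Sdha, by 0.2999 (SE 0.0822, adjusted p = 0.00249). Both sets of differences use the day-15 arrays.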

How the results depend on the processing

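Of 143 single-gene values, 56 kept their direction and their side of the threshold in every setting run. Counts below are members called of 69, up and down together unless split. With arrays at a common median, the counts were 66 (80 mg/kg day 24), 0 and 1 (30 mg/kg days 4 and 15), 27 and 49 (80 against 30 mg/kg, days 4 and 24), 11 (2 up, 9 down) and 10 (1 up, 9 down) for the effect of day 15 minus day 4 and day 24 minus day 15, and 1 for control day 15 against day 4; Ndufs1 was -0.0777 at 80 mg/kg on day 8 and -0.0389 for 80 against 30 mg/kg on day 24, Ndufb7 was -0.0285 on day 15, and the median of complex V on day 4 was -0.0548.

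After quantile normalization the counts were 19 (16 up), 29 (13 up), 45 (31 up) and 5 for 80 mg/kg on days 4, 8, 15 and 24. At 30 mg/kg the count was 1 on days 4 and 24. For 80 against 30 mg/kg it was 26 (15 up, 11 down) on day 8, 39 (30 up, 9 down) on day 15 and 1 (up) on day 24. The differences between days gave 21 (13 up, 8 down) for day 15 minus day 4 and 41 (7 up, 34 down) for day 24 minus day 15. Controls gave 11 (7 up, 4 down) for day 24 against 15 and 6 (5 up, 1 down) for day 15 against 4. On day 8 Sdhb was 0.0096, Uqcrfs1 0.00666, Sdhc 0.14, Uqcrc2 0.11, Cox4i1 0.0051, Cox5b 0.12, Atp5f1b 0.0664 and Ndufa8 0.0103, all below 0 on the deposited scale. On day 15 Ndufs7 was 0.17, Ndufv2 0.0831, Sdhb 0.21, Sdhc 0.23, Uqcrfs1 0.26, Cox4i1 0.17, Atp5f1a 0.14 and Atp5f1b 0.12. The medians turned to 0.10, 0.0881 and 0.0709 for complexes I, II and V on day 15 and to 0.00666 for complex III on day 8.

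With the mean of all probe sets of a gene, Ndufv3 was 0.11 on day 4, Uqcrc2 0.24 on day 8, Atp5me 0.0548 on day 24 and Atp5if1 -0.0922 for 80 against 30 mg/kg on day 15. Without the filter the counts were 7 (80 mg/kg day 24) and 1 (30 mg/kg day 4), and without a variance trend 1 (30 mg/kg day 4). With array weights they were 20 (80 mg/kg day 24), 1, 1 and 6 (30 mg/kg days 4, 8 and 15) and 4 (80 against 30 mg/kg day 24). With only the groups compared in the fit they were 5 and 0 (80 mg/kg days 4 and 24), 0 (30 mg/kg day 4), 6 and 0 (80 against 30 mg/kg days 4 and 24) and 3 (control day 15 against 4). The replicate numbers did not pair the arrays, with correlations of -0.08 to 0.06 over 36 pairs; with a replicate block the count was 9 (5 up, 4 down) for 80 mg/kg on day 4 and 19 for 80 against 30 mg/kg on day 4.

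With 1 array left out at a time, the counts at 80 mg/kg ran from 6 to 10, 46 to 55, 37 to 44 and 3 to 24 on days 4, 8, 15 and 24, those at 30 mg/kg from 0 to 2, 0 to 1, 1 to 4 and 0 to 0, and those for 80 against 30 mg/kg from 6 to 17, 45 to 54, 37 to 46 and 0 to 13. The differences between days ran from 17 to 27 and 17 to 22, and the controls from 4 to 8 (day 24 against 15) and 5 to 14 (day 15 against 4). Without the 2 day-24 arrays of highest actin ratio, an alternative chosen after seeing the data, the counts were 8 (80 mg/kg day 24), 9 (80 against 30 mg/kg day 24) and 19 (day 24 minus day 15). Comparisons with bright genes and ratios within arrays were also added after seeing the data. The cause of these shifts was not tested. Dim members such as Cox5a, with a control median of 49.3, are measured less firmly than bright ones.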
